A study of Mus musculus with 29 samples.

Results

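The genes described here are 34 genes of the lysosome, the acidic compartment in which cells break down proteins, lipids and sugar chains. They were chosen by name and function and comprise 10 glycosidases, 7 proteases, 5 lipid and sulfate hydrolases with their cofactor, 7 membrane and sterol transfer proteins, 4 subunits of the vacuolar proton pump and the transcription factor Tfeb. Each had 1 row in the table of 18240 genes, and all 34 passed the filter on low values that left 17881 genes for testing. The choice used a measured value for Gaa, which was known to be higher in mutant than in wild-type mice. The genotype difference is therefore given as a description, and the tests concern the drugs and sex. For Gaa itself the drug differences are a description too, since their reference is the mutant vehicle libraries of that contrast.

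Prefrontal cortex of C57BL/6J mice was profiled at postnatal day 40 by bulk RNA sequencing, with stranded poly(A) libraries of a single labelled batch. Mutant mice carried 1 K228E allele of Tbr1 beside the normal one (Tbr1+/K228E, called HT). The Tbr1 protein is a transcription factor of the T-box family that marks neurons of the deep cortical layers. HT mice received vehicle (3 females, 3 males), fluoxetine (4 females, 4 males) or lithium (3 females, 4 males). The controls were wild type (WT) and had vehicle (4 females, 4 males). Neither drug was given to WT mice, so a drug difference exists in HT mice alone. Doses, routes and durations are not in the labels, which also do not say whether a library is 1 mouse or a pool.

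Lysosomal hydrolases are made in the endoplasmic reticulum, sorted to the lysosome largely by mannose 6-phosphate tags, and work at the low pH that the proton pump keeps up. Tfeb binds the sequence CACGTG and longer forms of it near the start sites of many lysosomal genes, so these genes can be expressed together. Loss of single hydrolases causes storage diseases, among them Pompe disease for GAA in humans. Fluoxetine, a serotonin reuptake inhibitor, is a cationic amphiphilic amine of the kind that collects in acidic compartments and can detach acid sphingomyelinase, the product of Smpd1, from the inner membranes of the lysosome. Lithium, a mood stabiliser, inhibits glycogen synthase kinase 3 and inositol monophosphatase.

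RefSeq promoter windows of the build GRCm38.p6, from 250 bases before to 50 after a start site, were available for 30 of the 34 genes. The stretch around the motif is shown for the genes on which the results turn, 5′ to 3′ on the strand of the gene. Capitals mark CACGTG, which reads the same on both strands.
Gaa, glycogen-degrading acid alpha-glucosidase, chr11:119267813-119267838, plus strand: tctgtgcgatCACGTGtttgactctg
Mcoln1, chr8:3500464-3500489, plus strand: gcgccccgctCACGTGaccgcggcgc
Naglu, chr11:101070011-101070036, plus strand: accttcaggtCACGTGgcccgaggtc
Ctsd, chr7:142387910-142387935, minus strand: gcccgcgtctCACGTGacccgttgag
Ctsf, chr19:4855076-4855101, plus strand: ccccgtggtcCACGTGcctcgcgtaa
Gla, chrX:134601217-134601242, minus strand: agcgattgatCACGTGagcatctacg
Cln3, chr7:126583342-126583367, minus strand: cgggtactgtCACGTGacccccaacc
Atp6v0d1, chr8:105566052-105566077, minus strand: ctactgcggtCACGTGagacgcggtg

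CACGTG stood in a promoter window of 14 of the 30 lysosomal genes (46.7%), against 8.09% of all 27025 genes with a window. The 8-base form TCACGTGA, which contains CACGTG and also reads the same on both strands, stood in 7 of 30 (23.3%), against 1.12% of all genes. A 10-base form with G before and C after TCACGTGA stood in the window of Cln3 alone (3.33% of the 30, against 0.37% of all genes). In Gaa CACGTG began at position -140 from the start site, and in Atp6v0d1 at position -3. A match describes these letters only. Man2b1, Galc and Psap had windows without CACGTG.

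All 34 genes were expressed in every library, with at least 128 reads (Tfeb) for any gene in any library. Psap, the precursor of the saposins that help hydrolases reach their lipids, had the highest level per length, 16009 ± 771 normalised reads per kb of exon (SD over 29 libraries). It was followed by the aspartic protease gene Ctsd at 3820 ± 209, by Lamp1, a main glycoprotein of the lysosomal membrane, at 3030 ± 108, and by the pump subunit gene Atp6v0d1 at 2941 ± 158. Gaa came 8th at 1593 ± 158, the highest level among the glycosidases, ahead of Hexa (beta-hexosaminidase alpha) at 661 ± 27.6. The lowest levels were those of Cln3, a membrane protein lost in juvenile Batten disease, at 55.0 ± 4.86, the beta-mannosidase gene Manba at 40.4 ± 2.998 and Tfeb at 30.9 ± 3.69. Within groups the 34 genes varied little: the median residual SD was 0.0728 on the log2 scale, against 0.132 over all genes tested, and Tfeb varied most, at 0.180.

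**Figure D1:**
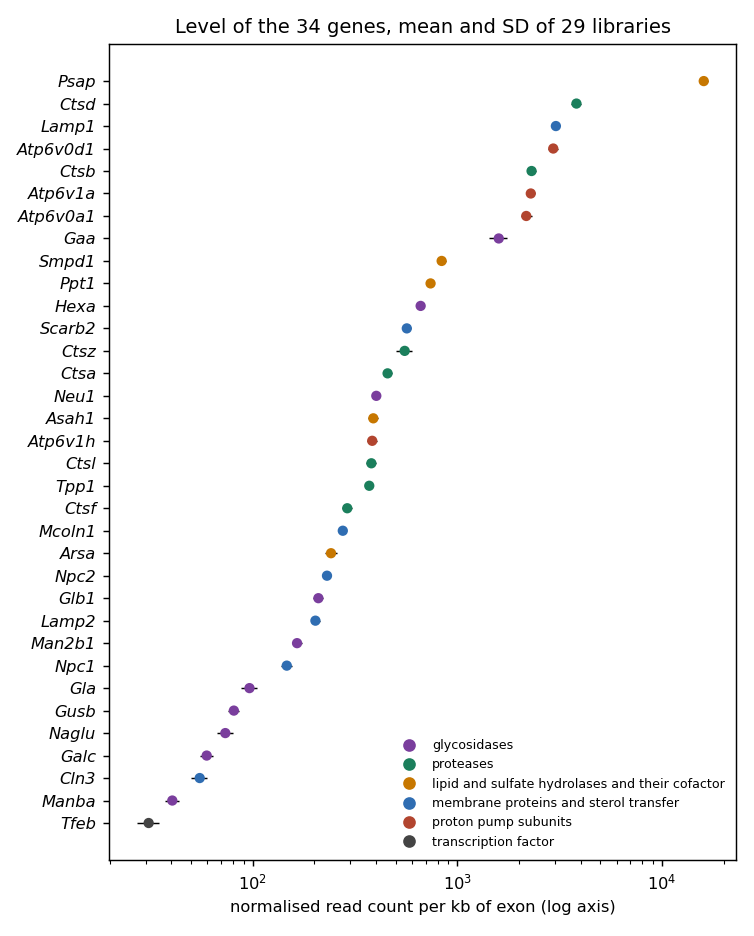
Level of each of the 34 genes as normalised read count per kb of exon on a log axis, mean and SD over all 29 libraries, coloured by role. The levels run from 30.9 for Tfeb to 16009 for Psap, and Gaa at 1593 is the highest of the glycosidases.

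The libraries held 22.81 M to 31.71 M reads in genes. As a check of the labels, Tbr1 was at 2866 ± 445 normalised reads in WT vehicle (SD, n = 8) and at 4067 ± 392 in HT vehicle (n = 6), with no overlap, and a count per gene cannot separate the alleles. Tbr1 ran from 2151 to 3432 in WT vehicle, from 3777 to 4738 in HT lithium and from 2858 to 4766 in HT fluoxetine. The lowest HT fluoxetine library thus lay within the WT range, and the Tbr1 level did not set every HT library apart. Neuronal transcripts were high throughout (Slc17a7, the vesicular glutamate transporter of cortical excitatory neurons, 32387 to 47980). Markers of neighbouring tissue also varied: in 10 of 29 libraries the mean of 10 olfactory bulb or 14 striatal markers lay more than 1 log2 unit above the median library. These 10 were 3 of the WT vehicle, 1 of the HT vehicle, 4 of the HT fluoxetine and 2 of the HT lithium libraries. In bulk tissue, fewer cells of a type and less RNA per cell cannot be told apart.

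Gaa encodes the enzyme that degrades glycogen in the lysosome (ENSMUSG00000025579, GRCm38 chromosome 11, 119267887 to 119285454, plus strand). In WT vehicle its normalised read counts were 7204, 6813, 7731 and 6769 in the 4 females and 5676, 6319, 6043 and 7316 in the 4 males. In HT vehicle they were 8794, 8071 and 7780 in females and 8346, 7305 and 8836 in males. All HT vehicle females lay above all WT females, while the lowest HT vehicle male lay just below the highest WT male, and over both sexes the groups overlapped. The share of all genes separated within a single sex was not counted. The means of Gaa were 6734 ± 690 in WT vehicle (SD, n = 8) and 8189 ± 596 in HT vehicle (n = 6). The log2 difference was 0.29 ± 0.049 (SE, on the log2(value + 1) scale used for all differences here), 0.20 ± 0.070 within females and 0.37 ± 0.070 within males. The difference between the sexes in this effect, -0.16 ± 0.099 (females minus males), did not pass the test (limma, adjusted p = 0.847). It holds the libraries used in the choice of Gaa and is a description too.

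Gaa stayed near the HT vehicle level in both drug groups. With fluoxetine the counts were 7471, 8239, 7650 and 7953 in females and 8149, 8598, 7697 and 8338 in males, a mean of 8012 ± 387 (n = 8). With lithium they were 7577, 7936 and 7870 in females and 7667, 7221, 7741 and 7811 in males, a mean of 7689 ± 239 (n = 7). The 3 HT means differed by less than the SD of HT vehicle. Fluoxetine minus vehicle within HT was -0.030 ± 0.049 (limma, adjusted p = 0.906), and lithium minus vehicle -0.086 ± 0.051 (limma, adjusted p = 0.527). The choice of Gaa used the HT vehicle libraries as well, so for Gaa these drug differences are a description. Against WT vehicle, and described only since the WT libraries are the same 8, Gaa was higher by 0.26 ± 0.046 with fluoxetine and by 0.20 ± 0.048 with lithium. The highest WT library, female 3, lay within the range of every HT group.

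**Figure D2:**
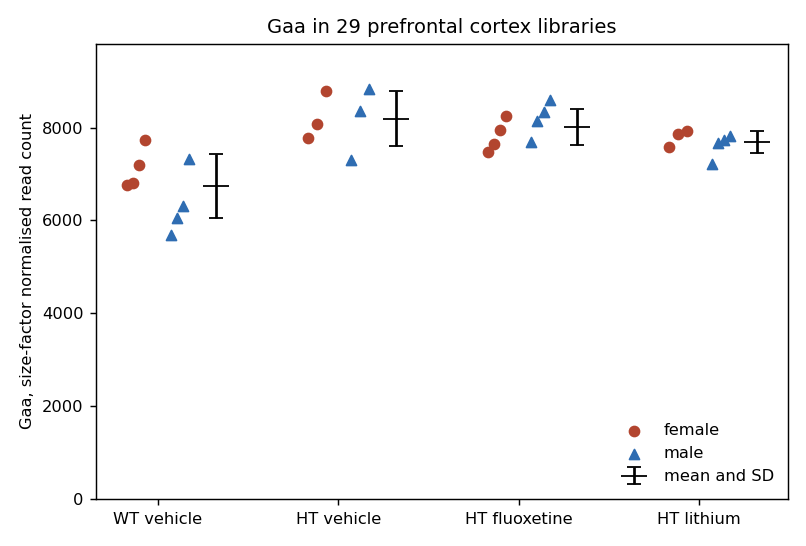
Gaa in each of the 29 libraries as normalised read count (axis from 0), females as circles and males as triangles, with the mean and SD of each group. The WT vehicle libraries run from 5676 to 7731, and the HT groups, which start at 7221, overlap with the upper end of that range.

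The genotype difference of Gaa stood apart in size from those of the other 33 genes, which ran from -0.13 for Gla (alpha-galactosidase A) to 0.11 for Mcoln1 (a calcium-permeable channel of the lysosomal membrane), with a median of 0.014. Of these 33, 18 were higher and 15 lower in HT vehicle, and none had groups without overlap (0.336% of all genes did). By adjusted p under 0.05, Gaa was the 1 gene called of the 34, where 0.207% of all genes tested were called. Since the choice of Gaa used this contrast, nothing is read from that count, which fell to 0 without HT vehicle female 1 or male 3 and rose to 2 without HT vehicle male 2 and with DESeq2, which called 1.19% of all genes. Within the 19 libraries without high olfactory or striatal markers the difference of Gaa was 0.30. The median of all 34 was 0.019, beside 0.00011 over all genes tested.

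By role, 6 of 10 glycosidases were higher in HT vehicle, with Gaa at the top, Naglu (0.086 ± 0.071) and Man2b1 (0.078 ± 0.032) next, and Gla lowest. Of the proteases, 4 of 7 were higher, led by Ctsa, protective protein of the beta-galactosidase complex, at 0.10 ± 0.034. Of the lipid and sulfate hydrolases and their cofactor, 2 of 5 were higher: Arsa (arylsulfatase A, 0.10 ± 0.050) and Psap (0.062 ± 0.036). Of the membrane and sterol transfer proteins, 2 of 7 were higher and 5 lower, with a median of -0.013. Lamp2, which serves chaperone-mediated autophagy and membrane integrity, was at -0.097 ± 0.036, while Mcoln1 was at 0.11 ± 0.030. The 4 pump subunits lay between 0.014 (Atp6v1h) and 0.066 (Atp6v0d1), with a median of 0.046 and all 4 above 0 under quantile normalisation as well, and Tfeb was at 0.037 ± 0.095. Among the 14 genes with CACGTG in a promoter window the median was 0.042, with 10 higher, and among the 16 without it -0.017, with 6 higher. In HT fluoxetine minus WT vehicle the medians were 0.012 with the motif (9 of 14 higher) and 0.0088 without it (10 of 16 higher). In HT lithium minus WT vehicle they were 0.016 (8 of 14 higher) and -0.017 (6 of 16 higher). Within HT mice they were -0.033 and 0.0059 in fluoxetine minus vehicle, and -0.045 and -0.024 in lithium minus vehicle. These values are a description, and Gaa is among the 14.

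Markers of several cell types differed with genotype as well, and their part in the difference of Gaa was not tested. Of 10 astrocyte markers 8 were lower in HT vehicle (median -0.091), with Gja1, the main astrocyte gap junction gene, lower at -0.19 ± 0.037 (adjusted p = 0.0313) and Aldh1l1, a folate enzyme, higher at 0.18 ± 0.033 (adjusted p = 0.0212). All 10 markers of vessel cells (median -0.13) and all 10 of meninges (median -0.20) were lower, as were 12 of 14 microglial markers (median -0.074), with none called. Of 14 oligodendrocyte and myelin markers 13 were lower (median -0.14), also with none called. Tissue markers differed too: 12 of 14 striatal markers were lower (median -0.22), and 6 of 10 olfactory bulb markers were higher (median 0.047). Of 10 neuronal markers 6 were higher (median 0.013). No striatal, olfactory or neuronal marker was called. The summed counts of the astrocyte list ran from 100040 to 117540 in WT vehicle and from 96323 to 106050 in HT vehicle, and those of the vessel list from 12656 to 15544 and from 12255 to 13083. No marker of the astrocyte, vessel, meningeal, microglial, oligodendrocyte, neuronal or olfactory list was at 0 in any library. Of the 14 striatal markers 1 was.

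The neighbourhood of Gaa on chromosome 11 gave no other call. Within 500 kb on either side, 16 other genes were tested, and their genotype differences ran from -0.15 to 0.11 with none called. Since 0.207% of all genes tested were called, the lack of a call among 16 says little about the region.

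**Figure D3:**
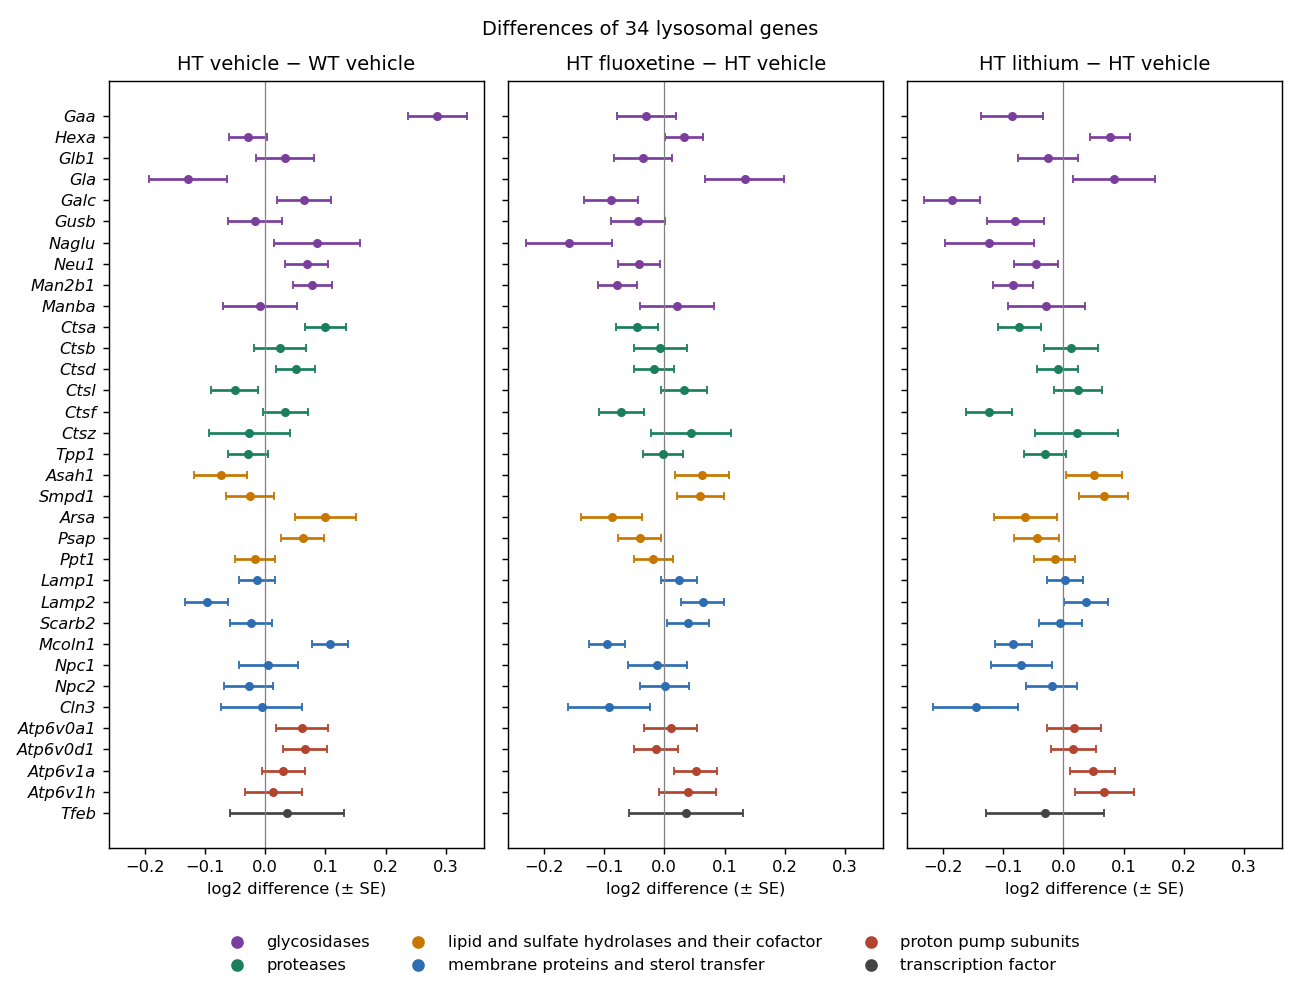
Log2 differences with SE for the 34 genes in 3 comparisons, coloured by role, on a common axis. In the genotype panel Gaa lies at 0.29 while the other 33 genes lie between -0.13 and 0.11. In both drug panels, which share the HT vehicle libraries, Gaa lies among the other genes.

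Fluoxetine left the level of every one of the 34 genes without a change that passed the test in HT mice. No member was called (limma, adjusted p under 0.05), and 0% of all genes tested were. Before adjustment, 3 of the 34 and 1397 of all 17881 genes had p under 0.05. edgeR on the recovered reads called 0 genes, and DESeq2 called 6 genes (0.0336%), with no member among them. Of the 34, 15 were higher and 19 lower, with a median of -0.0089 beside -0.0044 over all genes. The 95% confidence intervals, not adjusted for the number of genes, ran at most from -0.30 (Naglu) to 0.27 (Gla). A fold change above 1.24 in either direction thus lay outside the interval of each of the 34.

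The smallest p in the fluoxetine comparison belonged to Mcoln1. Its counts had a lowest, median and highest value of 2065, 2212 and 2319 in HT vehicle, and of 1907, 2063 and 2120 with fluoxetine. The ranges overlapped in the stretch from 2065 to 2120, and 4 of 8 fluoxetine libraries lay below every vehicle library. The difference was -0.095 ± 0.030 (adjusted p = 0.428). In WT vehicle Mcoln1 ran from 1943 to 2150 with a median of 2041, close to the fluoxetine libraries, and HT fluoxetine minus WT vehicle was 0.012 ± 0.027 (adjusted p = 0.914). Both differences contain the fluoxetine libraries.

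Man2b1, the lysosomal alpha-mannosidase, had a lowest, median and highest value of 1319, 1377 and 1434 in HT vehicle and of 1211, 1302 and 1376 with fluoxetine. The groups overlapped, and the difference was -0.078 ± 0.032 (adjusted p = 0.568). Naglu, which removes N-acetylglucosamine from heparan sulfate, had 185, 208 and 232 in HT vehicle and 164, 185 and 208 with fluoxetine. It is among the genes with the lowest levels, and its difference of -0.16 ± 0.071 was the lowest of the 34 and did not pass (adjusted p = 0.605).

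The gene closest to the known action of the drug, Smpd1, was at 0.060 ± 0.039 with fluoxetine (adjusted p = 0.724). Asah1, the acid ceramidase that acts on the product of that enzyme, was at 0.063 ± 0.045 (adjusted p = 0.746). Npc2, which hands cholesterol on within the lysosome, was at 0.00089 ± 0.041 (adjusted p = 0.998). Of the 4 pump subunits, 3 were higher, with a median of 0.025 and Atp6v1a, the catalytic subunit A, at 0.052 ± 0.036 (adjusted p = 0.739). Tfeb was at 0.036 ± 0.095 (adjusted p = 0.948), with the widest error of the set.

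Markers of other cells and tissue differed with treatment, and their part in these differences was not tested. Between HT vehicle and fluoxetine, 14 of 14 striatal markers were higher (median 0.81) and 10 of 10 olfactory bulb markers lower (median -0.50). All 14 oligodendrocyte and myelin markers were higher (median 0.20), and none of these genes passed the test. The summed count of the oligodendrocyte list ran from 64978 to 130130 in HT vehicle and from 77455 to 164540 with fluoxetine, so the groups overlapped widely. Neuronal and microglial markers differed little, with medians of 0.0059 and 0.034. No marker of the neuronal, astrocyte, microglial, oligodendrocyte or olfactory list was at 0 in any library, and 1 of the 14 striatal markers was.

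The fluoxetine differences pointed apart by sex in many members, without a call. Within females 8 of 34 genes were higher with fluoxetine (median -0.047), and within males 23 of 34 (median 0.038). The difference between the sexes had a median of -0.075 over the 34 genes, with 25 negative, and with 25 negative under quantile normalisation too. Other lists leaned the same way, with 22 of 30 further lysosomal enzymes, 14 of 15 further pump subunits and 19 of 20 sterol genes negative. Of 25 further membrane and sorting genes 14 were negative, and of 14 oligodendrocyte and myelin markers 3. The share over all genes is not given here, so the lean is not read as particular to the 34. No member passed its test, while 19 of 17881 genes (0.106%) did, and 5 members and 2429 of all genes had p under 0.05 before adjustment. Tissue markers split by sex too, and their part in these values was not tested. In the same difference between the sexes, 14 of 14 striatal markers were negative (median -0.70) and 10 of 10 olfactory bulb markers positive (median 0.72).

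The smallest p there was that of Ctsd, the main aspartic protease of the lysosome. In females its counts were 9778, 9108 and 9634 with vehicle and 8419, 9279, 8148 and 8521 with fluoxetine. In males they were 8551, 9022 and 8634 with vehicle and 9194, 9068, 9556 and 9990 with fluoxetine. In females 3 of 4 fluoxetine libraries lay below every vehicle library, and in males all 4 lay above every vehicle library. The log2 differences were -0.15 ± 0.046 in females and 0.11 ± 0.046 in males, and their difference was -0.26 ± 0.065 (limma, adjusted p = 0.101). With DESeq2 this difference passed (adjusted p = 0.0122, where 1.11% of all genes were called), and so it did in limma without HT fluoxetine female 2 (adjusted p = 0.0432).

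Psap, named after its values were seen, had the next smallest p among the 34. In females it was at 46446, 46473 and 45983 with vehicle and at 39581, 45826, 41144 and 40980 with fluoxetine. In males it was at 42870, 42613 and 46407 with vehicle and at 45319, 46493, 45013 and 47100 with fluoxetine. Every fluoxetine female lay below every vehicle female, while the male groups overlapped. For Psap and Ctsd alike, the share of all genes separated in this way within a single sex was not counted. Nothing is therefore read from these separations. The difference between the sexes for Psap was -0.21 ± 0.072 and did not pass (limma, adjusted p = 0.197). HT fluoxetine female 2, with the highest striatal marker mean of all libraries, was the fluoxetine female nearest to vehicle for both Ctsd and Psap. Over all 29 libraries, deviations from group means correlated with those of the striatal mean at r = 0.082 for Ctsd and 0.43 for Psap. Neither passed (adjusted permutation p = 0.871 and 0.238). The part of striatal tissue in these values was not tested.

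**Figure D4:**
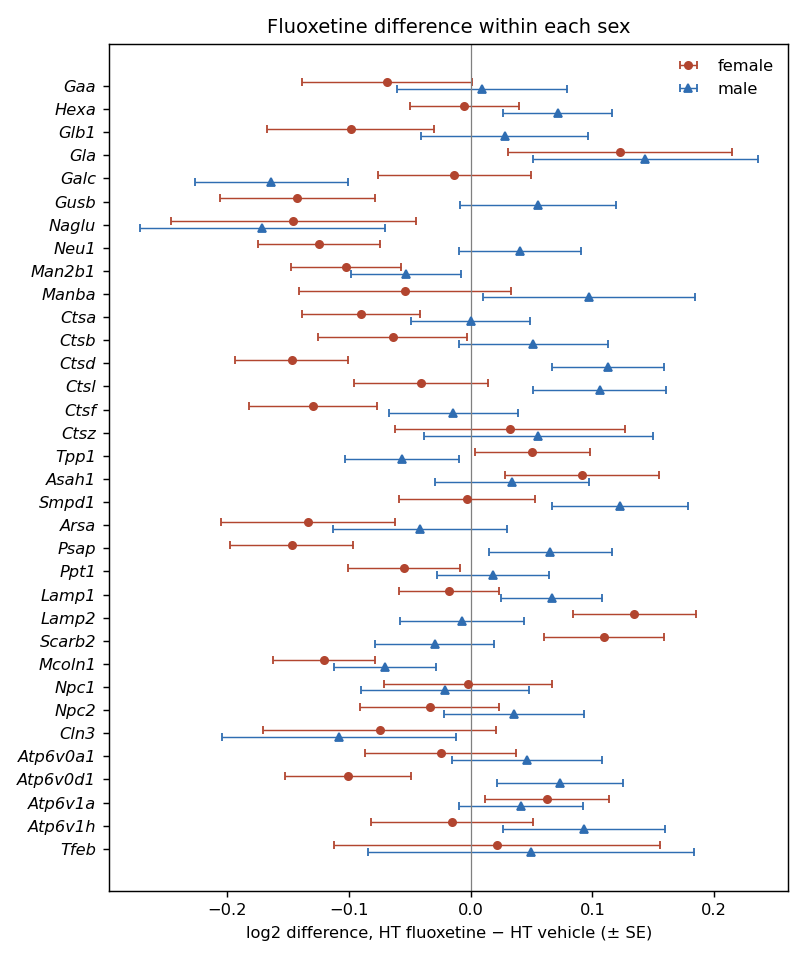
Log2 difference with SE between HT fluoxetine and HT vehicle within females (circles) and within males (triangles) for the 34 genes. The values lie below 0 for 26 genes in females and for 11 in males, and Ctsd shows -0.15 in females and 0.11 in males.

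Lithium gave no call among the 34 genes either. No member and 0% of all genes tested passed, 6 members and 2030 genes of all had p under 0.05 before adjustment, edgeR called 0 genes, and DESeq2 called 32 (0.179%) with no member among them. Of the 34, 13 were higher and 21 lower than in HT vehicle, with a median of -0.023 beside -0.0037 over all genes. The intervals ran at most from -0.29 (Cln3) to 0.22 (Gla).

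Galc, the galactosylceramidase that breaks down the main myelin lipid and is lost in Krabbe disease, had the smallest p. Its lowest, median and highest values were 860, 928 and 1008 in HT vehicle and 769, 840 and 863 with lithium. The ranges met only at their ends, and 5 of 7 lithium libraries lay below every vehicle library. The difference was -0.18 ± 0.046 (adjusted p = 0.247). Against WT vehicle, which ran from 827 to 1001, the lithium group was at -0.12 ± 0.043 (adjusted p = 0.134). The oligodendrocyte and myelin markers were on the other side, with 14 of 14 higher with lithium than in HT vehicle (median 0.18). Olfactory bulb markers differed more, with 10 of 10 lower with lithium (median -1.34), and 11 of 14 striatal markers were higher (median 0.36). Their part in the lithium differences was not tested.

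Ctsf, a cysteine protease, had 1450.5, 1511 and 1585 in HT vehicle and 1285, 1412 and 1452 with lithium, and here too the ranges met only at their ends. No member had groups without overlap in this comparison, where 0.542% of all genes did. Its difference was -0.12 ± 0.039 (adjusted p = 0.276). Mcoln1, which had the next smallest p, was at 2029, 2060 and 2136 (lowest, median and highest) with lithium, within the range of WT vehicle. Its difference from HT vehicle was -0.083 ± 0.031 (adjusted p = 0.326). The fluoxetine and lithium differences of a gene share the HT vehicle libraries, so a like sign in both is no independent repeat. Set against each other directly, lithium minus fluoxetine gave no call among members or among all genes tested (0%), and 1 member, Galc, and 626 of all genes had p under 0.05 before adjustment. Galc was at -0.096 ± 0.043 there (adjusted p = 0.985).

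The 4 pump subunits were all above 0 with lithium, though Atp6v0d1 and Atp6v0a1 were below 0 under quantile normalisation. They lay between 0.017 (Atp6v0d1) and 0.068 (Atp6v1h), with a median of 0.033 and none called. Of 15 further pump subunits, 11 were higher, with a median of 0.028. Of the glycosidases 8 of 10 were lower, Hexa (0.078 ± 0.033) and Gla (0.084 ± 0.067) being the exceptions. Cln3 was at -0.15 ± 0.070 (adjusted p = 0.435).

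Set against WT vehicle, each drug group of HT mice showed no call among the 33 members other than Gaa. The 33 are tested here, while the values of Gaa against WT vehicle are the description given above, since its choice used the same 8 WT libraries. In HT fluoxetine minus WT vehicle none of the 33 was called, where 0.19% of all genes were. They ran from -0.097 (Cln3) to 0.082 (Atp6v1a), with a smallest adjusted p of 0.434. In HT lithium minus WT vehicle none of the 33 was called either, where 1.9% of all genes were. They ran from -0.15 (Cln3) to 0.082 (Atp6v0d1), with a smallest adjusted p of 0.134. None of the 33 had groups without overlap in either comparison, where 0.0615% and 0.442% of all genes did.

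Between the sexes, over all groups, no member passed, where 0.257% of all genes did. The 3 smallest p were those of Ctsl, Ctsd and Gusb. Ctsl, a cysteine protease, was lower in females, at -0.065 ± 0.027 (adjusted p = 0.513). Its WT vehicle values were 2321, 2390, 2436 and 2348 in females and 2589, 2575, 2838 and 2504 in males, without overlap, but in HT vehicle females reached 2527 and males ran from 2375 to 2382. The share of all genes that separate the sexes within a group was not counted. Ctsd was at 0.047 ± 0.023 (adjusted p = 0.607), and Gusb (beta-glucuronidase) at 0.065 ± 0.031 (adjusted p = 0.61), both higher in females. Gusb ran from 322 to 415 in females and from 323 to 398 in males over all groups.

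Gla and Lamp2, the X-linked members, did not differ detectably by sex. Gla ran from 265 to 341 in females and from 271 to 401 in males, a difference of -0.062 ± 0.045 (adjusted p = 0.801). Lamp2 ran from 1791 to 2035 in females and from 1791 to 2205 in males, a difference of -0.020 ± 0.025 (adjusted p = 0.916). The 95% intervals of these differences ran from -0.16 to 0.031 for Gla and from -0.071 to 0.032 for Lamp2.

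From library to library the 34 genes showed no common direction, though single pairs went closely together or apart: over the 561 pairs, the median correlation of deviations from group means over 29 libraries was 0.014, with a range from -0.63 to 0.88. These deviations share library preparation and size factor and are given as a description. They were also set against the mean of each of 5 marker lists, 170 relations in all, with permutation tests adjusted over the 170. Of these, 18 passed by Pearson r. Among the 18, Asah1 and Smpd1 with the neuronal list and Asah1 with the microglial list did not pass by Spearman rho (adjusted permutation p = 0.0689, 0.0643 and 0.0689).

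The neuronal list had 6 of these relations, none of which passed under quantile normalisation. Ctsb, a cysteine protease, had r = 0.80 and rho = 0.78 with it (adjusted p = 0.0147 and 0.0306, permutation tests, n = 29), and r = 0.74 without the 2 libraries farthest from the median. Atp6v0d1 followed with r = 0.75 and rho = 0.69 (adjusted permutation p = 0.0147 and 0.0306), and r = 0.67 without 2 libraries. Gaa had r = 0.70 and rho = 0.60 (adjusted permutation p = 0.0224 and 0.0459), and r = 0.53 without the 2. The neuronal mean was lowest in WT vehicle male 1, the library with the lowest Gaa count. Over groups, the neuronal mean of HT vehicle, from -0.059 to 0.052, lay within that of WT vehicle, from -0.16 to 0.057 (log2, centred over libraries). With the neuronal and astrocyte means as covariates, chosen after the data were seen, the genotype difference of Gaa was 0.25. This value is a description, and the part of these cell types in the difference was not tested.

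Among the other lists, Psap, Atp6v0a1, Atp6v0d1, Atp6v1h and Ctsb were lower where astrocyte markers were higher. Of these, Atp6v0a1 had r = -0.71 and rho = -0.72 (adjusted permutation p = 0.0149 and 0.0306), and r = -0.73 without 2 libraries. Lamp1, Tfeb and Npc1 went with oligodendrocyte and myelin markers, with r = 0.73 and rho = 0.69 for Lamp1 (adjusted permutation p = 0.0155 and 0.0306), and r = 0.70 without 2 libraries. Naglu and Asah1 went with microglial markers (r = 0.59 and 0.60), and Scarb2, the receptor that carries beta-glucocerebrosidase to the lysosome, against them (r = -0.64). By rho the relation of Asah1 did not pass (adjusted permutation p = 0.0689). Within the 19 libraries without high olfactory or striatal markers, none of the 170 relations passed. Under quantile normalisation 3 astrocyte and 1 oligodendrocyte relation passed, and 0 microglial ones. The 17 that had passed for the neuronal, astrocyte, microglial and oligodendrocyte lists all kept their sign in both settings. Before adjustment, 13 of them had permutation p under 0.05 in the 19 libraries and 11 under quantile normalisation.

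**Figure D5:**
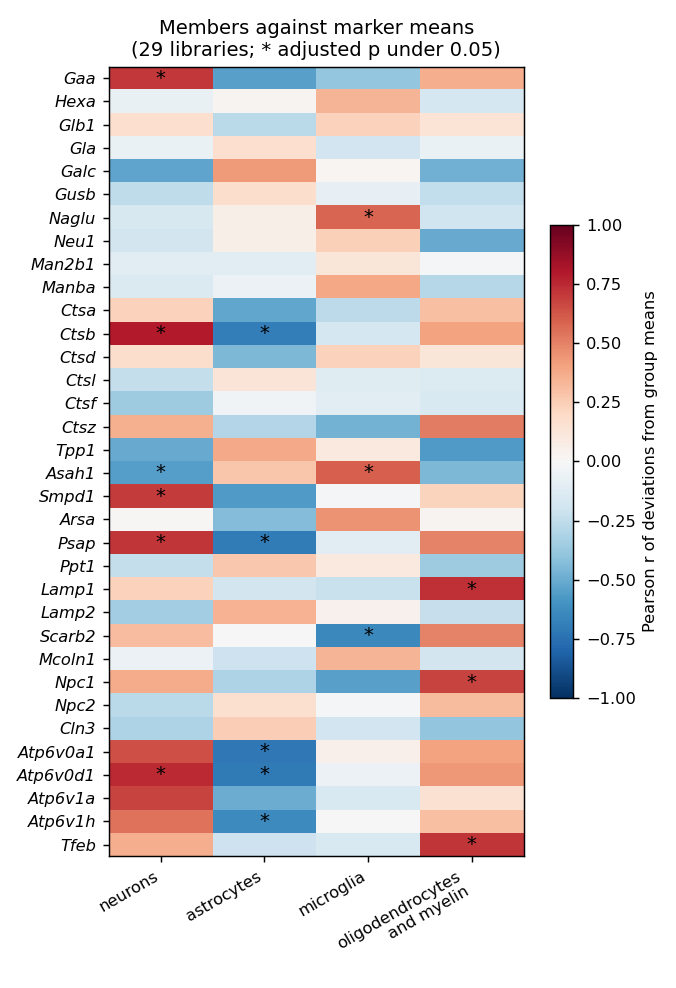
Pearson r between the deviation of each gene from its group mean and that of 4 marker lists over 29 libraries, in a colour scale from -1 to 1, with stars for an adjusted permutation p under 0.05. The stars number 17, and the 34 genes show both signs against every list.

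The rest of the pathway was counted in 6 further lists. None of 30 other lysosomal enzymes, 25 other membrane and sorting genes, 15 other pump subunits, 20 relatives of Tfeb and nutrient sensors, 24 autophagy genes and 20 genes of sterol synthesis and uptake passed in the fluoxetine or the lithium comparison. With fluoxetine the medians of the 6 lists lay between -0.0074 (membrane and sorting) and 0.023 (sterol genes, 14 of 20 higher). With lithium they lay between -0.036 (membrane and sorting) and 0.045 (sterol genes, 16 of 20 higher). The smallest p among the sterol genes was that of Lss (lanosterol synthase) with fluoxetine, at -0.097 ± 0.038 (adjusted p = 0.549), and that of Sc5d (a sterol desaturase) with lithium, at 0.12 ± 0.046 (adjusted p = 0.333). In HT lithium minus WT vehicle, which combines genotype and drug, 1.9% of all genes tested were called. There 1 gene of the 6 lists passed, Cd63, a tetraspanin of late endosomes and lysosomes. It was lower by 0.22 ± 0.052 (limma, adjusted p = 0.0279), and nothing is read from this count. In that comparison Vtn, Pdgfrb and Cldn5 of the vessel list, Igfbp2 of the meningeal list and Gja1 of the astrocyte list were lower too, with adjusted p between 0.00912 and 0.0487, and their part in the Cd63 difference was not tested.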

How the data were processed

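The values are the authors' deposited signal: whole read counts divided by a size factor for the library. This was read from the values, of which 100% in each library were whole multiples of 1 step (tolerance 0.0001), with a step near 1 for HT fluoxetine male 3 and females 1 and 2. The submitters' processing notes name Salmon 0.11.2, DESeq2 1.19.11, R 3.6.0 and GRCm38, with no role for any. The strand setting is not given in the sources used here. The exons of 12 of the 34 genes overlap another listed gene, so some of their reads could belong to that neighbour. Glb1 overlaps Tmppe on the same strand. Ctsb, Lamp1, Npc1, Galc, Cln3, Hexa and Atp6v1h are among those that overlap a gene on the opposite strand.

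Names and coordinates came from an annotation of GRCm38, which held 18227 of 18240 identifiers. Testing used limma 3.58.1 (R 4.3.3) on log2(value + 1) for the genes that reached 10 in 3 or more libraries. The model held a mean for each group of genotype, treatment and sex, 21 residual degrees of freedom and an intensity trend, with two-sided p and Benjamini-Hochberg adjustment over all 17881 genes at 0.05. A difference without a named sex averages that of females and that of males. The script was tested on simulated data. Marker relations used 100000 permutations of libraries within groups.

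The members and lists were chosen with earlier results of these data known. By rule, all 34 genes could be named, with full values for Gaa, the 3 genes with the smallest p in fluoxetine, lithium and sex, and X-linked genes, and from other lists up to 3 called genes or the 1 with the smallest p. Alternatives were other scalings, pseudocounts of 0.5 and 10, filters, other fits, marker covariates, count tests on the recovered reads (DESeq2 1.42.0, edgeR 4.0.16), and leaving out each library. Nothing says that libraries came from separate mice, so p-values measure the spread between libraries. Read counts limit the precision of low genes such as Tfeb.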

Additional observations from a re-analysis of the deposited data

Results flagged for a closer look

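In 11 of 136 groups of a gene and a treatment, both sexes together, 1 library stood apart from the others of its group by Dixon's test, where chance flags about 1 in 20 groups. None of these values was given an explanation here. In HT lithium, 6 genes had such a library. These were Neu1 (sialidase) at 1390 in male 2, the lowest of 7, Ctsl at 2759 in male 2, the highest, Manba at 320.9 in female 2, the highest, Ctsf at 1285 in female 3, the lowest, Cln3 at 333.4 in male 4, the highest, and Atp6v1a at 13050 in female 1, the lowest. In HT fluoxetine, Hexa was highest in male 3 at 1414, Galc highest in female 1 at 1031, and Mcoln1 lowest in female 3 at 1907. The Galc value lay 0.765 of the range of its 8 libraries away from the next one. In the vehicle groups, Gla was highest in WT male 3 at 401.4, a library with high olfactory markers, and Lamp2 was highest in HT male 2 at 2010.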

How the results depend on the processing

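Over 45 settings (16 alternatives and leaving out each of 29 libraries), no difference of any of the 34 genes that had passed changed its sign. In the main fit only differences of Gaa had passed. Differences not called were less stable: under the 16 alternatives, 109 values over 92 of 340 pairs of gene and comparison moved by the SE or more. For genotype, the number of members called was 0 with only the groups compared and without high-marker libraries, 2 with DESeq2 (Gaa and Mcoln1), and 0 to 2 when 1 library was left out. The difference of Gaa lay between 0.25 and 0.32 in all of these. Against WT vehicle Gaa, whose choice used the same WT libraries, was the 1 member past the threshold, so these counts test nothing about it. For HT fluoxetine minus WT vehicle the number was 0 with only the groups compared and without high-marker libraries. For HT lithium minus WT vehicle it was 0 with quantile normalisation, with olfactory and striatal covariates, with neuronal and astrocyte covariates (chosen after the data were seen) and without high-marker libraries, and 0 to 1 when 1 library was left out. For fluoxetine by sex it was 1 with DESeq2 (Ctsd) and 0 to 1 when 1 library was left out, the 1 being without HT fluoxetine female 2. The other comparisons gave 0 in every setting, and the smallest adjusted p of any member in any setting was 0.136 for fluoxetine and 0.0535 for lithium. Of the marker relations, 0 passed without high-marker libraries and 5 with quantile normalisation, against 18, and the 5 hold none of the 6 of the neuronal list. Of 17 relations outside the striatal list, the smallest absolute r was 0.0101 with quantile normalisation. The cause was not tested, but the fits without high-marker libraries hold 19 libraries only. Same-numbered libraries of different groups had a median correlation of -0.014 by title numbers and -0.0014 by library names. The highest was 0.31 in both numberings, with 14 of 94 and 17 of 92 pairs above 0.1. The median therefore does not settle whether some libraries were paired. With the replicate number as a block, the genotype comparison called 1 member in both numberings, and 82 and 73 genes of all, against 37, and the block changed no call of a member. DESeq2 called 212 genes for genotype. The standard errors, with a median of 0.040 for a drug difference, limit what could be seen, and low genes such as Tfeb and Naglu are the least certain.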
